A study of Mus musculus with 15 samples.

Results

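Aminoacyl-tRNA synthetases were followed across 15 expression arrays of mouse choroid plexus and its tumours, 5 arrays per group, each hybridised with total RNA of a tissue sample. Members were taken by gene symbol, as the amino acid's single letter followed by "ars", with the endings 1, 2, 3, a, b or l2 allowed. This rule uses no measured value, but the family was chosen with earlier results of these data known. The rule found 34 of the 22180 genes that could be measured, of which 18 encode cytosolic and 16 mitochondrial enzymes. Every member lay above the array medians of 6.79 to 6.90 in at least 1 group. Each member was measured by a single probe set, except Nars2, which had a pair.

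Normal choroid plexus came from Myc/Myc; p53fl/fl mice with no Cre listed, so these controls carried the Myc and floxed p53 alleles too. Papilloma came from Atoh1-Cre; Myc/Myc mice and carcinoma from Atoh1-Cre; Myc/Myc; p53fl/fl mice, so papilloma mice lacked the floxed p53 alleles that the controls carried. The strain was given as "C57Bl/6 and 129 mix" for all groups, ages were not given in the labels, and tumours were taken when mice showed signs of disease. Atoh1-Cre drives recombination in cells that express Atoh1, and in their descendants. The arrays of a group are labelled as biological replicates, and the labels do not say whether an array held tissue of 1 mouse or of several.

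Aminoacyl-tRNA synthetases join each amino acid to its tRNA, the step that fixes the meaning of the genetic code. The cytosol and the mitochondrion each translate with their own set of enzymes, and both sets are encoded in the nucleus. Several cytosolic synthetases sit in a large multisynthetase complex held together by scaffold proteins, while the others work outside it. Genes of cytosolic synthetases are textbook targets of ATF4, a transcription factor of the amino acid response, and protein synthesis genes as a class are known targets of Myc. Mitochondrial genes end in 2 here, with the exception of Tarsl2 (also named Tars3), which was counted as cytosolic. Gars and Kars each encode both a cytosolic and a mitochondrial form and were counted as cytosolic.

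Promoter sequences of members are shown for reference, and their part in the changes described below was not tested. RefSeq promoters of 300 bases (build GRCm38.p6) were found for 25 of the 34 members, 26 promoters in all. Each was searched on both strands for CACGTG, the E-box bound by Myc with Max (its own reverse complement), and for TGATGNAA, the core of the ATF4 element, whose reverse complement is TTNCATCA. CACGTG was present in 4 of the 26 member promoters (15.38%) and in 7.15% of all 32851 promoters. TGATGNAA was present in 4 of the 26 (15.38%) and in 3.97% of all promoters. All 4 promoters with TGATGNAA belonged to cytosolic members (of 11 searched), and 0 of the 15 mitochondrial promoters held it. CACGTG was found in 3 of 11 cytosolic and 1 of 15 mitochondrial promoters. The search covered 11 of the 18 cytosolic and 14 of the 16 mitochondrial members. No promoter was found for Cars, Hars, Lars, Nars, Rars, Vars, Wars, Hars2 or Pars2. The windows with a match follow, 5′ to 3′ on the gene's strand, with the matched letters in capitals. A match says only that the letters are present, and the absence of a match says nothing of the factor.
Gars, TGATGNAA on the opposite strand, chr6:55037941-55038008, plus strand: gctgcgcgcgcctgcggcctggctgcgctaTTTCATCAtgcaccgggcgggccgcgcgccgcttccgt
Iars, TGATGNAA on the opposite strand, chr13:49682107-49682159, plus strand: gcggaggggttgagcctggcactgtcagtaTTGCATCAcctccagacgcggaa
Tars, TGATGNAA on the opposite strand, chr15:11399636-11399703, minus strand: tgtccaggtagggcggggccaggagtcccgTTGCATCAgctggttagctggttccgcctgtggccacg
Yars, TGATGNAA on the gene's strand, chr4:129189876-129189932, plus strand: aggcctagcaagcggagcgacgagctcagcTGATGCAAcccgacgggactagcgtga
Iars, CACGTG, chr13:49682031-49682096, plus strand: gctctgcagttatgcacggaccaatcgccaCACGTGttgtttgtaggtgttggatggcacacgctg
Tars, CACGTG, chr15:11399629-11399669, minus strand: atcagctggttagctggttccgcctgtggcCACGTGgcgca
Farsb, CACGTG, chr1:78488901-78488966, minus strand: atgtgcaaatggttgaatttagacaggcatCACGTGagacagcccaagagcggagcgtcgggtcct
Ears2, CACGTG, chr7:122067057-122067095, minus strand: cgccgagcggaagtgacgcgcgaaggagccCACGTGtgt
Iars and Tars held both motifs. Counted from the annotated start, TGATGNAA began at position -30 in Gars, 8 in Iars, -15 in Tars and 4 in Yars, and CACGTG at -69 in Iars, 20 in Tars, -39 in Farsb and 22 in Ears2.

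Synthetase transcripts were higher in both tumours than in normal choroid plexus. In carcinoma 30 of 34 members rose, 1 fell (Fars2) and 3 did not pass the test (Cars2, Pars2 and Wars2), by limma with Benjamini-Hochberg adjustment over all genes at 0.05. Of all 22180 genes, 18.7% were called higher and 19.2% lower in the same comparison. In papilloma 29 of 34 rose, 0 fell and 5 did not pass (Aars2, Cars2, Fars2, Gars and Pars2), where 17.0% of all genes were called higher and 16.3% lower. At an unadjusted limma p under 0.05, 31 members differed from normal in papilloma. The share of all genes past that unadjusted threshold was not counted. The median log2 change of the members was 0.59 in carcinoma and 0.66 in papilloma, beside -0.02 and 0.01 over all genes. These are relative amounts in bulk tissue, in which fewer cells of a type and less RNA per cell cannot be told apart. Both comparisons used the same 5 normal arrays.

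**Figure D1:**
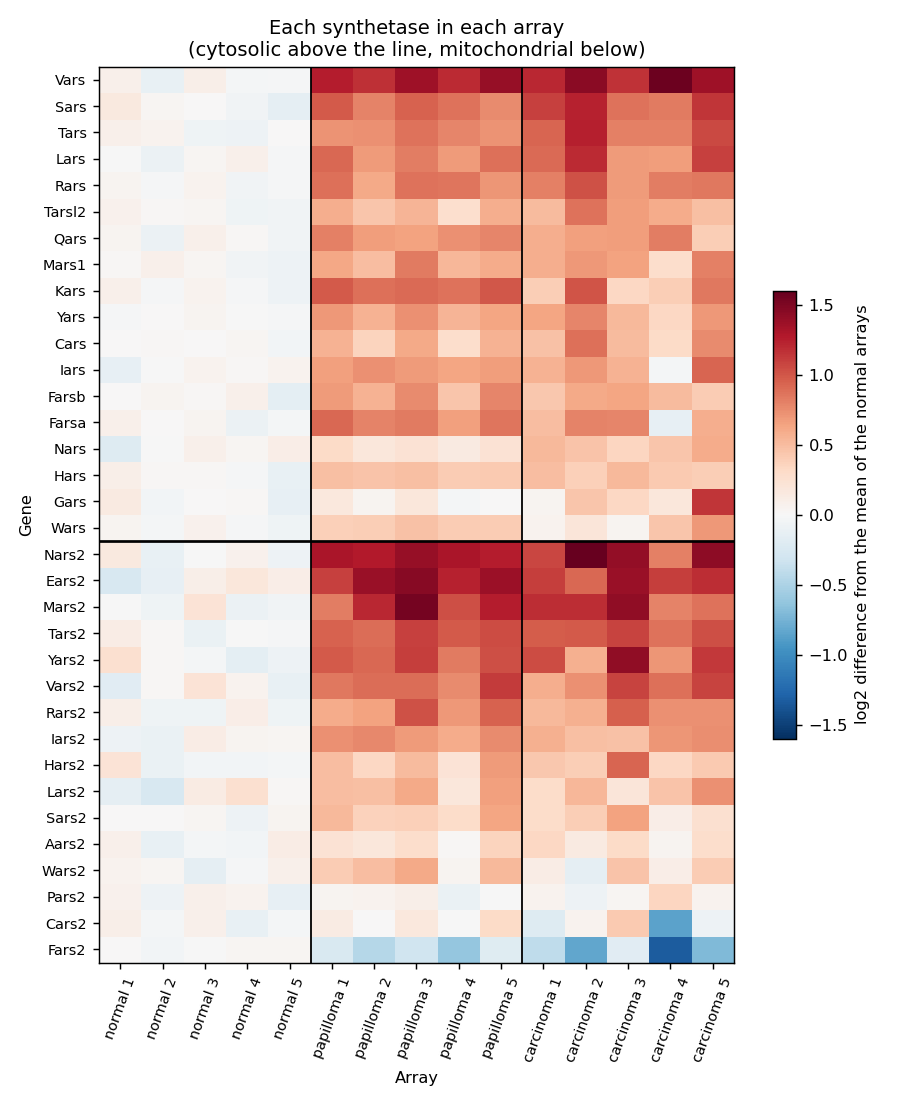
Log2 difference of each synthetase (rows, cytosolic above the line and mitochondrial below) from the mean of the normal arrays, in each of the 15 arrays (columns); red is higher and blue lower. Most rows are red across all 10 tumour arrays, Fars2 is blue in all 10, and Cars2 is lowest in carcinoma 4.

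The rise was present in every tumour array. Between 29 and 31 of the 34 members lay above the highest normal value in each carcinoma array, and between 26 and 33 in each papilloma array. The share of all genes above the highest normal value in a single array was not counted. The median difference of the members from the normal mean was 0.52, 0.67, 0.64, 0.45 and 0.74 in carcinoma arrays 1 to 5. In papilloma arrays 1 to 5 it was 0.67, 0.58, 0.71, 0.57 and 0.69. For 24 members all carcinoma arrays lay above all normal arrays, as for 14.6% of all genes, and for 1 member all lay below, as for 15.2%. In papilloma 26 members lay wholly above and 1 wholly below the normal arrays, where 16.3% and 15.8% of all genes did. Members varied more among carcinomas: their median SD over 5 arrays was 0.09 for the normal, 0.11 for the papilloma and 0.20 for the carcinoma group, beside 0.12, 0.15 and 0.19 over all genes.

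Several facts of the whole series moved with these groups. Myc itself was higher than normal by 0.60 (SE 0.14, adjusted p = 0.00228) in papilloma and by 0.80 (SE 0.14, adjusted p = 0.000166) in carcinoma. Trp53 was not analysed here. Choroid plexus epithelial markers were high in every array but lower in the tumours. The mean log2 value of 7 such genes, Ttr and Kl among them, was 13.14 to 13.19 in normal arrays. It was 12.64 to 12.89 in papilloma and 12.61 to 12.83 in carcinoma arrays. Of the 7 genes, 4 were called lower in papilloma and 3 in carcinoma, and 0 were called higher. The mean of 6 multiciliated cell markers was 10.96 to 11.25 in normal, 6.97 to 7.17 in papilloma and 7.18 to 8.54 in carcinoma arrays, and 6 of 6 fell in each tumour. The mean of 6 fibroblast markers was 10.04 to 10.21 in normal, 7.88 to 8.55 in papilloma and 8.24 to 8.66 in carcinoma arrays. The mean of 3 pituitary hormone genes was 7.90 to 9.64 in normal, 6.10 to 7.37 in papilloma and 6.14 to 6.30 in carcinoma arrays. For 8 neuronal markers it was 8.39 to 8.91, 7.25 to 9.75 and 7.21 to 7.86, and for 5 oligodendrocyte markers 8.63 to 8.96, 7.76 to 8.46 and 7.52 to 8.04. For 6 macrophage markers it was 8.07 to 8.38, 7.94 to 8.07 and 8.01 to 9.05, and for 6 endothelial markers 8.73 to 9.19, 9.04 to 9.51 and 9.37 to 9.80. Mitotic genes rose in steps: the mean of 5 was 7.05 to 7.30 in normal, 8.43 to 8.97 in papilloma and 9.73 to 11.04 in carcinoma arrays, and 5 of 5 were higher in each successive group. A value above 0 on this scale does not show that a transcript or a cell type was present. The part of other cell types and of cycling cells in the synthetase changes was not tested. Normal arrays 2 to 5 held both Xist (10.69 to 12.48) and Y-linked transcripts such as Uty (7.98 to 10.44), whereas each tumour array held either Xist or Y-linked transcripts, and the part of this in the results was not tested. Whether the SD of the normal arrays is a spread between single mice is therefore not known.

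All 18 cytosolic members rose in carcinoma and 17 of 18 in papilloma, with median log2 changes of 0.59 and 0.66. Vars, the valyl-tRNA synthetase, which associates with the elongation factor complex eEF1, rose most among them. Across arrays 1 to 5, Vars had values of 9.45, 9.25, 9.47, 9.34 and 9.35 in the normal group, 10.63, 10.54, 10.73, 10.57 and 10.77 in the papilloma group and 10.58, 10.82, 10.52, 10.95 and 10.74 in the carcinoma group. Every tumour value lay more than 1 log2 unit above the highest normal value, and papilloma and carcinoma arrays overlapped. The change was 1.28 (SE 0.09, adjusted p = 1.29e-08) in papilloma and 1.35 (SE 0.09, adjusted p = 6.17e-09) in carcinoma. Sars charges serine tRNAs and also the selenocysteine tRNA. In normal arrays 1 to 5 Sars read 11.52, 11.39, 11.36, 11.31 and 11.22, in the papilloma arrays 12.35, 12.15, 12.31, 12.23 and 12.11, and in the carcinoma arrays 12.46, 12.59, 12.23, 12.19 and 12.51. All 10 tumour arrays lay above all normal arrays. Sars rose by 0.87 (SE 0.09, adjusted p = 1.08e-06) in papilloma and by 1.03 (SE 0.09, adjusted p = 1.40e-07) in carcinoma.

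Further cytosolic enzymes outside the complex rose by smaller steps. Tars (threonine) rose by 0.76 in papilloma and 0.97 in carcinoma, and its paralogue Tarsl2 by 0.48 and 0.62. Yars (tyrosine) rose by 0.63 and 0.59, Cars (cysteine) by 0.47 and 0.59, and Hars (histidine) by 0.45 and 0.44. Farsa and Farsb are the alpha and beta subunits of the cytosolic phenylalanine enzyme. Farsa rose by 0.81 and 0.50, and Farsb by 0.64 and 0.52. Farsa in carcinoma 4 read 9.15, below the normal arrays at 9.19 to 9.36, while the other carcinoma arrays read 9.78 to 10.08. Adjusted p-values of these changes ran from 1.60e-07 (Tars, carcinoma) to 0.00773 (Farsa, carcinoma).

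The cytosolic members that moved least were Gars, Nars and Wars in papilloma and Wars, Gars and Hars in carcinoma. Wars charges tryptophan tRNAs and is known as an interferon-induced gene. Wars read 11.02, 10.94, 11.05, 10.95 and 10.91 in normal arrays 1 to 5, 11.36, 11.36, 11.44, 11.37 and 11.38 in the papilloma arrays and 11.03, 11.17, 11.02, 11.41 and 11.66 in the carcinoma arrays. The papilloma arrays lay tightly above the normal arrays, while carcinoma 1 and 3 lay within the normal range and carcinoma 5 far above it. Wars rose by 0.41 (SE 0.10, adjusted p = 0.00520) in papilloma and by 0.29 (SE 0.10, adjusted p = 0.0387) in carcinoma. The carcinoma call was lost without carcinoma 4 or 5 or normal 1, 2, 4 or 5 (adjusted p = 0.0535 to 0.0842), and after quantile normalization (adjusted p = 0.0587). The change was 0.18 without carcinoma 5 and 0.43 (adjusted p = 0.000422) with chromosome-wide shifts removed. The median of all genes on chromosome 12, where Wars lies, was -0.18, -0.19, -0.28, -0.01 and -0.04 in carcinoma arrays 1 to 5.

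Gars, which charges glycine tRNAs in both compartments, differed between carcinomas. Across arrays 1 to 5, Gars had values of 11.63, 11.45, 11.50, 11.50 and 11.36 in the normal group, 11.65, 11.54, 11.67, 11.45 and 11.50 in the papilloma group and 11.53, 11.93, 11.82, 11.66 and 12.63 in the carcinoma group. Carcinoma 5 stood at 12.63, and carcinoma 1 lay within the normal range. Gars rose by 0.43 (SE 0.15, adjusted p = 0.0373) in carcinoma and changed by 0.07 (SE 0.15, adjusted p = 0.775) in papilloma, where the arrays overlapped. The carcinoma call was lost without carcinoma 2 or normal 2, 3, 4 or 5 (adjusted p = 0.0607 to 0.0816), and after quantile normalization (adjusted p = 0.0688). Without carcinoma 5 the change was 0.25 (adjusted p = 0.0393).

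The 6 members that sit in the complex, Iars, Kars, Lars, Mars1, Qars and Rars, all rose in both tumours. Their median changes were 0.76 in papilloma and 0.61 in carcinoma. These medians leave out Eprs, a complex enzyme that the symbol rule does not take, which rose by 1.22 in papilloma and 1.29 in carcinoma. Of the 6 members, Lars (leucine) changed most in carcinoma, by 0.91, beside 0.80 in papilloma. Kars (lysine, both compartments) changed most of the 6 in papilloma, by 0.93, beside 0.59 in carcinoma. Rars (arginine) rose by 0.78 and 0.83, Qars (glutamine) by 0.73 and 0.62, Mars1 (methionine) by 0.62 and 0.60, and Iars (isoleucine) by 0.67 and 0.54, papilloma first. Adjusted p-values ran from 2.73e-07 (Rars, carcinoma) to 0.00282 (Iars, carcinoma). Iars in carcinoma 4 read 11.53, within the normal range of 11.44 to 11.63, while the other 4 carcinoma arrays read 12.13 to 12.49. The 12 cytosolic members outside the complex had medians of 0.56 and 0.55. By catalytic fold, the 9 cytosolic class I enzymes had a median of 0.60 in carcinoma and the 9 class II enzymes 0.52, and the difference was not tested.

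**Figure D2:**
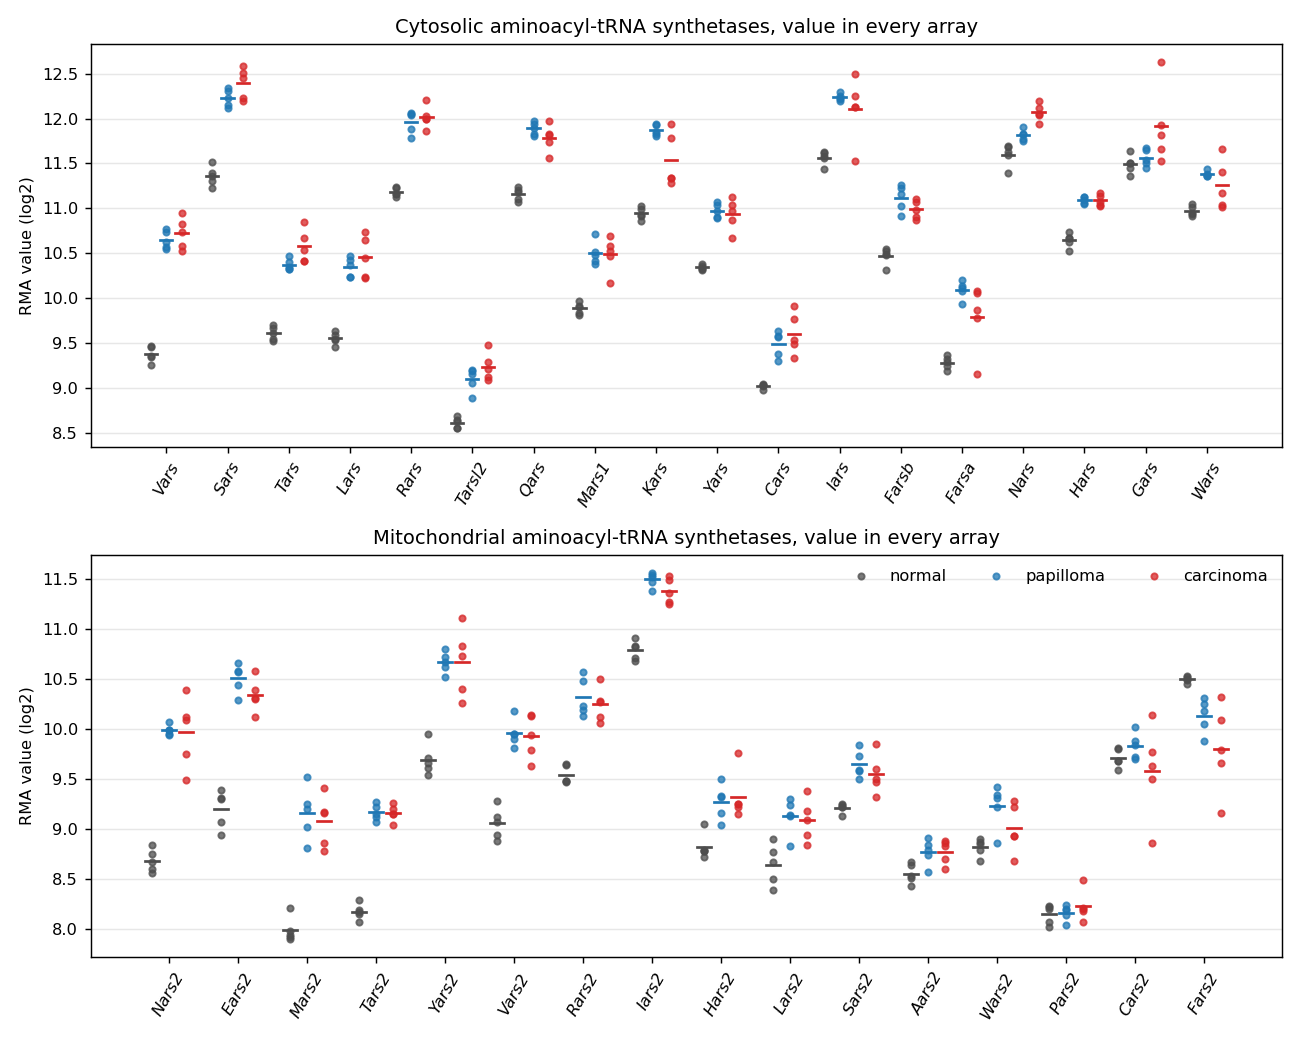
RMA value (log2) of every synthetase in each array, cytosolic above and mitochondrial below, with a point per array and a bar at each group's mean. Tumour points lie above the normal points for most genes, and Fars2 at the far right of the lower panel goes the other way.

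Of the 16 mitochondrial members, 12 rose in each tumour, with median changes of 0.60 in papilloma and 0.55 in carcinoma. Nars2 (asparagine) and Ears2 (glutamate) led them. In normal arrays 1 to 5 Nars2 read 8.84, 8.56, 8.67, 8.74 and 8.60, in the papilloma arrays 9.99, 9.95, 10.07, 9.99 and 9.94, and in the carcinoma arrays 9.75, 10.39, 10.08, 9.48 and 10.12. Each tumour array exceeded every normal array, and the papilloma arrays lay within a narrow band. Nars2 rose by 1.31 (SE 0.13, adjusted p = 9.03e-07) in papilloma and by 1.28 (SE 0.13, adjusted p = 9.00e-07) in carcinoma. A dimmer Nars2 probe set, at 7.20 in normal tissue, differed by 0.21 in papilloma and 0.26 in carcinoma, and the mean of both probe sets gave 0.76 and 0.77, still called.

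Ears2 charges the mitochondrial glutamate tRNA and, in the route to mitochondrial glutaminyl-tRNA, also loads the glutamine tRNA with glutamate. Ears2 read 8.94, 9.07, 9.29, 9.38 and 9.31 in normal arrays 1 to 5, 10.29, 10.58, 10.66, 10.43 and 10.57 in the papilloma arrays and 10.31, 10.12, 10.58, 10.30 and 10.38 in the carcinoma arrays. No tumour array overlapped the normal arrays. Ears2 rose by 1.31 (SE 0.10, adjusted p = 8.27e-08) in papilloma and by 1.14 (SE 0.10, adjusted p = 3.19e-07) in carcinoma. Mars2 (methionine) showed a similar step. Across arrays 1 to 5, Mars2 had values of 7.98, 7.92, 8.21, 7.90 and 7.94 in the normal group, 8.81, 9.20, 9.51, 9.02 and 9.25 in the papilloma group and 9.16, 9.17, 9.41, 8.78 and 8.86 in the carcinoma group. Normal 3 was the highest normal array and still lay below all tumour arrays. Mars2 rose by 1.17 (SE 0.13, adjusted p = 4.30e-06) in papilloma and by 1.09 (SE 0.13, adjusted p = 7.52e-06) in carcinoma.

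Tars2 (threonine) had the smallest standard error among these larger changes. In normal arrays 1 to 5 Tars2 read 8.28, 8.19, 8.07, 8.17 and 8.15, in the papilloma arrays 9.12, 9.07, 9.27, 9.15 and 9.22, and in the carcinoma arrays 9.14, 9.15, 9.26, 9.03 and 9.20. The 10 tumour arrays spanned 9.03 to 9.27, and no normal array exceeded 8.28. Tars2 rose by 0.99 (SE 0.07, adjusted p = 9.83e-09) in papilloma and by 0.99 (SE 0.07, adjusted p = 9.44e-09) in carcinoma. Yars2 (tyrosine) rose by similar amounts with more spread. Yars2 read 9.95, 9.71, 9.66, 9.54 and 9.60 in normal arrays 1 to 5, 10.66, 10.61, 10.80, 10.52 and 10.72 in the papilloma arrays and 10.73, 10.26, 11.11, 10.40 and 10.82 in the carcinoma arrays. Tumour arrays again lay above all normal arrays, with carcinoma 2 lowest and carcinoma 3 highest of them. Yars2 rose by 0.97 (SE 0.13, adjusted p = 2.93e-05) in papilloma and by 0.97 (SE 0.13, adjusted p = 2.34e-05) in carcinoma.

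Vars2, Rars2, Iars2, Hars2, Lars2 and Sars2 also rose in both tumours. Papilloma first, the changes were 0.90 and 0.87 for Vars2 (valine), 0.78 and 0.70 for Rars2 (arginine), and 0.71 and 0.59 for Iars2 (isoleucine). They were 0.45 and 0.50 for Hars2 (histidine), 0.48 and 0.44 for Lars2 (leucine), and 0.44 and 0.34 for Sars2 (serine). Adjusted p-values ran from 1.33e-06 (Iars2, papilloma) to 0.00836 (Lars2, carcinoma).

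Aars2, Wars2, Pars2 and Cars2 were the mitochondrial members nearest to no change in carcinoma. Aars2 charges mitochondrial alanine tRNA. Across arrays 1 to 5, Aars2 had values of 8.64, 8.43, 8.53, 8.51 and 8.67 in the normal group, 8.79, 8.74, 8.84, 8.57 and 8.91 in the papilloma group and 8.88, 8.70, 8.86, 8.60 and 8.83 in the carcinoma group. Groups overlapped. The change was 0.22 (SE 0.08, adjusted p = 0.0512) in papilloma, which did not pass, and 0.22 (SE 0.08, adjusted p = 0.0422) in carcinoma, which did. The carcinoma call was lost without carcinoma 1, 3 or 5, normal 2, 3 or 4, or papilloma 2 or 3 (adjusted p up to 0.107), after quantile normalization (0.0581) and with a variance trend (0.0501). The papilloma change passed without carcinoma 4, normal 5 or papilloma 4 (adjusted p = 0.0185 to 0.0421), with arrays set to a common median (0.0251), with dim genes left out (0.0327) and after quantile normalization (0.0282).

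Wars2 (tryptophan) rose in papilloma by 0.41 (SE 0.12, adjusted p = 0.0136) but did not pass in carcinoma, at 0.19 (SE 0.12, adjusted p = 0.248). In normal arrays 1 to 5 Wars2 read 8.87, 8.84, 8.68, 8.79 and 8.90, in the papilloma arrays 9.22, 9.31, 9.42, 8.86 and 9.34, and in the carcinoma arrays 8.93, 8.68, 9.28, 8.92 and 9.22. Papilloma 4 and 3 of the 5 carcinoma arrays lay close to the normal range or within it. The difference between the tumours was -0.22 (SE 0.12, adjusted p = 0.274), which did not pass. Pars2 (proline) changed by 0.02 (SE 0.08, adjusted p = 0.919) and 0.08 (SE 0.08, adjusted p = 0.470), with 95% intervals of -0.15 to 0.18 and -0.09 to 0.25. Cars2 (cysteine) depended on carcinoma 4. Cars2 read 9.81, 9.68, 9.79, 9.59 and 9.68 in normal arrays 1 to 5, 9.84, 9.72, 9.87, 9.70 and 10.02 in the papilloma arrays and 9.50, 9.77, 10.13, 8.86 and 9.62 in the carcinoma arrays. Carcinoma 4 lay far below all other arrays, and carcinoma 3 above all. Cars2 changed by 0.12 (SE 0.17, adjusted p = 0.653) in papilloma and -0.13 (SE 0.17, adjusted p = 0.585) in carcinoma, and by 0.05 in carcinoma without carcinoma 4. Cars2 and Farsa, both low in carcinoma 4, lie on chromosome 8 with Kars, and the median of all chromosome 8 genes was -0.17, -0.07, -0.11, -0.23 and 0.01 in carcinoma arrays 1 to 5.

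Fars2, the mitochondrial phenylalanine enzyme, a single chain where the cytosolic enzyme has alpha and beta subunits, was the only member called lower. Across arrays 1 to 5, Fars2 had values of 10.50, 10.45, 10.49, 10.52 and 10.53 in the normal group, 10.25, 10.04, 10.18, 9.88 and 10.31 in the papilloma group and 10.09, 9.66, 10.32, 9.16 and 9.79 in the carcinoma group. All 10 tumour arrays lay below all normal arrays, and carcinoma 4 was lowest. Fars2 fell by 0.69 on the log2 scale in carcinoma (SE 0.16, 1.62-fold lower, adjusted p = 0.00246). In papilloma the change was -0.36 (SE 0.16, adjusted p = 0.0981), with arrays that did not overlap, and it passed only without carcinoma 4 (adjusted p = 0.0203). The median of all chromosome 13 genes, among which Fars2 lies, was between -0.07 (carcinoma 4) and 0.03 in the carcinoma arrays. Iars and Eef1e1 (a scaffold gene described below) also lie on chromosome 13 and were lowest of the carcinoma arrays in carcinoma 4. A shift of part of the chromosome was not tested.

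**Figure D3:**
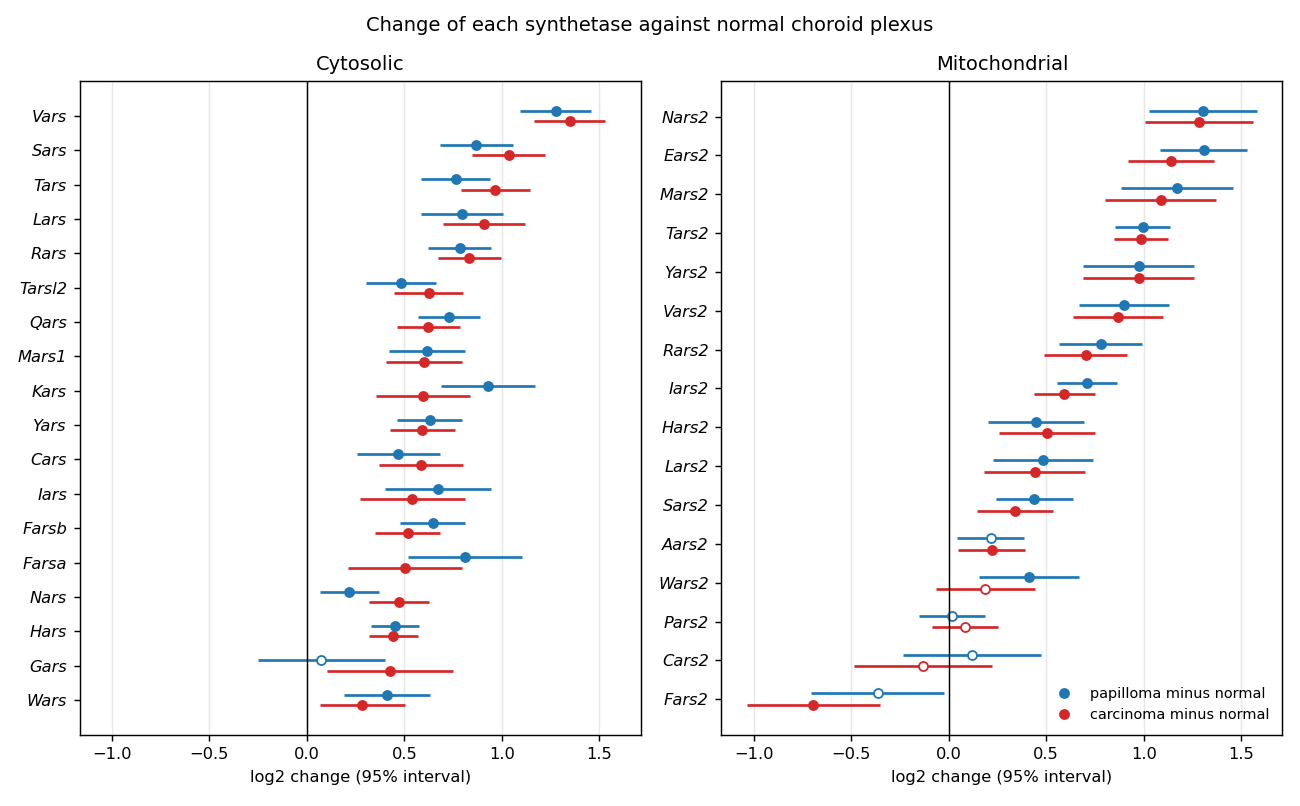
Log2 change of each synthetase against normal choroid plexus with its 95% interval (horizontal axis), in papilloma (blue) and carcinoma (red); filled points passed the test and open points did not. Vars, Nars2, Ears2 and Mars2 lie above 1 in both tumours, and Fars2 lies below 0 in both.

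For 13 amino acids both the cytosolic and the mitochondrial synthetase were measured, which gave 14 pairs because phenylalanine has a pair of cytosolic subunits. The difference of the log2 changes (cytosolic minus mitochondrial) was tested with limma beside all genes, 22194 rows. In carcinoma the cytosolic enzyme rose more in 6 pairs and the mitochondrial in 2, and 6 did not pass. In papilloma the counts were 5, 3 and 6. Both phenylalanine pairs use the same Fars2 values and are in the cytosolic count of each tumour, so Fars2 enters that count more than once. The phenylalanine pairs were among the most different, at 1.17 (SE 0.11, adjusted p = 6.26e-07) in papilloma and 1.20 (SE 0.11, adjusted p = 4.35e-07) in carcinoma for Farsa, and 1.01 (SE 0.15, adjusted p = 7.64e-05) and 1.21 (SE 0.15, adjusted p = 1.01e-05) for Farsb. The serine pair differed by 0.43 (SE 0.12, adjusted p = 0.0115) and 0.70 (SE 0.12, adjusted p = 0.000229). The asparagine and methionine pairs went the other way. Nars rose less than Nars2, with differences of -1.09 (SE 0.15, adjusted p = 2.39e-05) and -0.81 (SE 0.15, adjusted p = 0.000320). The dimmer Nars2 probe set, averaged in, left these at -0.54 and -0.30, both still called. Taken alone, that probe set changed by only 0.21 in papilloma and 0.26 in carcinoma, beside 0.22 and 0.47 for Nars. The direction of the asparagine difference therefore rests on the brighter Nars2 probe set. Mars1 rose less than Mars2, with differences of -0.56 (SE 0.13, adjusted p = 0.00252) and -0.49 (SE 0.13, adjusted p = 0.00566).

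In papilloma the leucine, valine, cysteine, threonine and tyrosine pairs were closer to the threshold than the pairs above. Lars rose more than Lars2 by 0.47 (SE 0.10, adjusted p = 0.00121) in carcinoma and 0.31 (SE 0.10, adjusted p = 0.0218) in papilloma. That papilloma call was lost without normal 3 or 4 or papilloma 1 or 4 (adjusted p = 0.0544 to 0.0627) and with a variance trend (0.0532). Vars rose more than Vars2 by 0.48 (SE 0.12, adjusted p = 0.00503) and 0.37 (SE 0.12, adjusted p = 0.0257), carcinoma first. Its papilloma call was lost without normal 2, 3 or 4 or papilloma 1, 3 or 4 (adjusted p = 0.0504 to 0.0650). Cars exceeded Cars2 in carcinoma by 0.72 (SE 0.14, adjusted p = 0.000732), whereas the papilloma difference of 0.35 (SE 0.14, adjusted p = 0.0757) did not pass. Tars rose less than Tars2 in papilloma, with a difference of -0.23 (SE 0.08, adjusted p = 0.0442), and the carcinoma difference was -0.02 (SE 0.08, adjusted p = 0.896). The papilloma call for threonine was lost without carcinoma 1, normal 1, 2, 3 or 5, or any papilloma array (adjusted p = 0.0507 to 0.103), and with a variance trend (0.114). Differences between Yars and Yars2 of -0.38 (SE 0.15, adjusted p = 0.0518) in carcinoma and -0.34 (SE 0.15, adjusted p = 0.0884) in papilloma were not called. The tyrosine difference in carcinoma passed without carcinoma 2 or normal 1 (adjusted p = 0.00115 to 0.0317), with dim genes left out (0.0379) and with chromosome-wide shifts removed (0.0194), and the papilloma difference without carcinoma 2 or 3 (0.0160 to 0.0351).

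Histidine, isoleucine, arginine and tryptophan pairs did not pass in either tumour. Hars and Hars2 are neighbours with 0 genes between them in the RefSeq gene table, and their changes differed by 0.00 (SE 0.10, adjusted p = 0.993) in papilloma and -0.06 (SE 0.10, adjusted p = 0.711) in carcinoma. Iars and Iars2 differed by -0.04 (SE 0.14, adjusted p = 0.889) and -0.05 (SE 0.14, adjusted p = 0.811), Rars and Rars2 by 0.01 (SE 0.13, adjusted p = 0.984) and 0.13 (SE 0.13, adjusted p = 0.473), and Wars and Wars2 by 0.00 (SE 0.14, adjusted p = 0.997) and 0.10 (SE 0.14, adjusted p = 0.650). A p above the threshold does not show that the members of a pair changed alike.

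**Figure D4:**
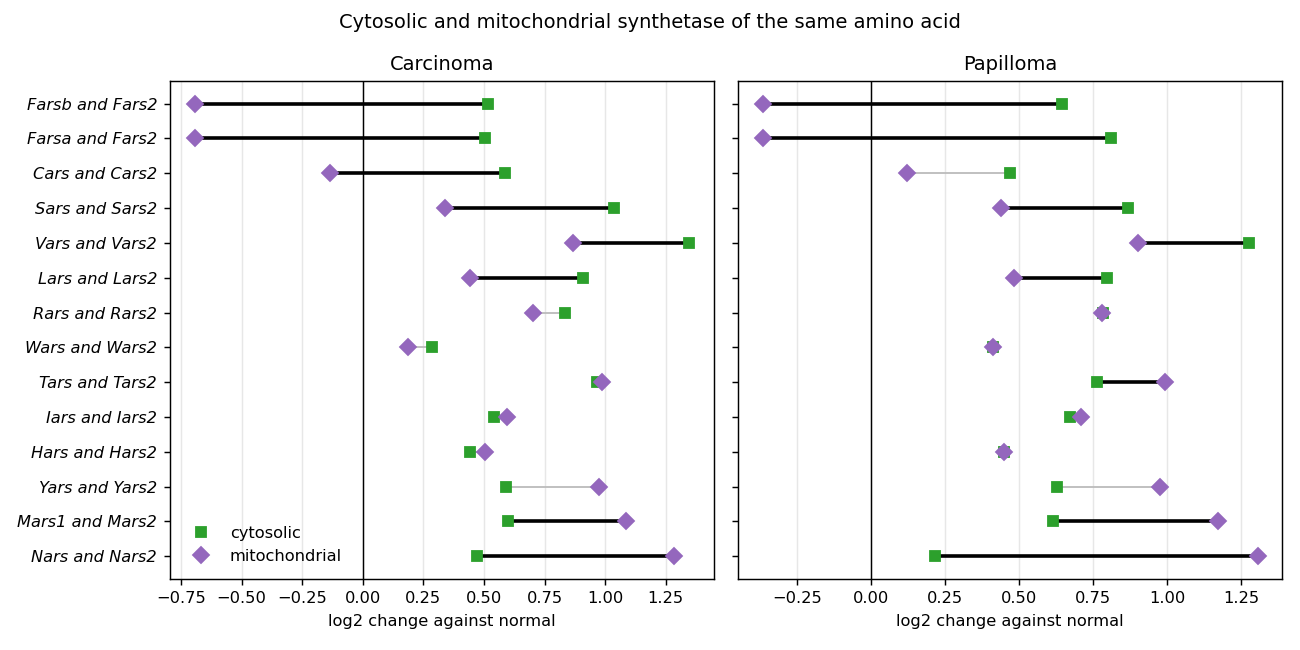
Log2 change against normal (horizontal axis) of the cytosolic (green squares) and mitochondrial (purple diamonds) synthetase of each amino acid, in carcinoma (left) and papilloma (right); thick black lines join pairs whose changes differed by the test. Phenylalanine pairs at the top lie furthest apart of the pairs with the cytosolic enzyme higher, and Nars and Nars2 at the bottom lie apart the other way.

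Between the tumours 1 of 34 members passed the test. Nars was higher in carcinoma, 0 members were called lower and 33 did not pass, where 6.24% of all genes were called higher and 5.17% lower by limma. The arrays of the tumours did not overlap for 1 member, Nars, where 4.52% of all genes lay wholly higher and 3.39% wholly lower. At an unadjusted limma p under 0.05, 5 members differed, and the share of all genes past that threshold was not counted. The changes of the members ran from -0.33 to 0.35, with a median of -0.03. Nars charges asparagine tRNAs. In normal arrays 1 to 5 Nars read 11.39, 11.59, 11.68, 11.62 and 11.70, in the papilloma arrays 11.90, 11.78, 11.82, 11.75 and 11.83, and in the carcinoma arrays 12.11, 12.06, 11.94, 12.04 and 12.19. Each carcinoma array lay above each papilloma array, and these above each normal array. Nars was higher in carcinoma than papilloma by 0.25 (SE 0.07, adjusted p = 0.0310), and higher than normal by 0.22 (SE 0.07, adjusted p = 0.0270) in papilloma and 0.47 (SE 0.07, adjusted p = 6.06e-05) in carcinoma. The difference between tumours was lost without carcinoma 1 or 5 or papilloma 2, 3, 4 or 5 (adjusted p = 0.0567 to 0.0709). The papilloma rise was lost without normal 1 or 2 or papilloma 1, 3 or 5 (adjusted p = 0.0509 to 0.0727) and after quantile normalization (0.120).

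Gars and Kars showed the largest differences between the tumours, and neither passed. Gars differed by 0.35 (SE 0.15, adjusted p = 0.166), with a 95% interval of 0.03 to 0.68. Kars is the lysyl-tRNA synthetase. Kars read 11.02, 10.92, 10.99, 10.92 and 10.86 in normal arrays 1 to 5, 11.93, 11.83, 11.85, 11.81 and 11.94 in the papilloma arrays and 11.34, 11.95, 11.28, 11.34 and 11.79 in the carcinoma arrays. Carcinoma arrays 1, 3 and 4 lay below the papilloma arrays and carcinoma 2 and 5 near them. Kars differed by -0.33 (SE 0.11, adjusted p = 0.0706), with an interval of -0.58 to -0.09. It passed as lower in carcinoma without carcinoma 2 or 5 (adjusted p = 0.00828 to 0.0349), and with dim genes left out (0.0480). Of the 14 pairs, limma called 0 as different between the tumours, and 3 at an unadjusted p under 0.05.

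Partners of the synthetases were read from a list of 10 genes, 8 of them measured. Eprs, the enzyme that charges both glutamate and proline tRNAs in the complex, is not taken by the symbol rule. Across arrays 1 to 5, Eprs had values of 10.07, 10.27, 10.31, 10.37 and 10.30 in the normal group, 11.49, 11.37, 11.54, 11.51 and 11.51 in the papilloma group and 11.54, 11.77, 11.35, 11.38 and 11.72 in the carcinoma group. All its tumour arrays lay above all normal arrays. Eprs rose by 1.22 (SE 0.09, adjusted p = 3.15e-08) in papilloma and by 1.29 (SE 0.09, adjusted p = 1.47e-08) in carcinoma. Eef1e1 and Aimp1 encode scaffold proteins of the complex. Eef1e1 rose by 1.23 (SE 0.22, adjusted p = 0.000349) and 1.29 (SE 0.22, adjusted p = 0.000195), although carcinoma 4 read 10.09 against 9.74 to 10.20 in normal arrays. Aimp1 rose by 0.74 (SE 0.08, adjusted p = 3.14e-06) and 0.58 (SE 0.08, adjusted p = 3.11e-05). Dtd2, which clears mischarged tRNAs, rose in papilloma only as called, by 0.46 (SE 0.12, adjusted p = 0.00581), and Pstk, of the selenocysteine route, in carcinoma as called, by 0.39 (SE 0.13, adjusted p = 0.0256). Prorsd1, named for a domain shared with prolyl-tRNA synthetases, differed by -0.33 (SE 0.08, adjusted p = 0.00674) and -0.45 (SE 0.08, adjusted p = 0.000433), lower in both. In all, 4 of 8 rose and 1 fell in each tumour. For this list and those below, the shares of all genes called higher and lower were 18.7% and 19.2% in carcinoma. In papilloma they were 17.0% and 16.3%. Sepsecs, which makes selenocysteinyl-tRNA, was the single partner that differed between the tumours, by -0.42 (SE 0.10, adjusted p = 0.0123).

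Genes of mitochondrial translation other than the synthetases were read from a list of 18. Of 17 measured, 13 rose in carcinoma and 12 in papilloma, 0 fell, and the medians were 0.44 and 0.57. Tufm, the mitochondrial elongation factor Tu, which carries charged tRNAs to the ribosome, rose by 1.35 (SE 0.10, adjusted p = 3.05e-08) in papilloma and 1.28 (SE 0.10, adjusted p = 4.71e-08) in carcinoma. Mto1, which modifies mitochondrial tRNAs, rose by 1.14 (SE 0.11, adjusted p = 5.04e-07) and 1.08 (SE 0.11, adjusted p = 8.18e-07). Trit1, which modifies tRNAs of both compartments, rose by 0.70 (SE 0.11, adjusted p = 8.61e-05) in papilloma and 1.30 (SE 0.11, adjusted p = 1.01e-07) in carcinoma. Trit1 was higher in carcinoma than in papilloma by 0.61 (SE 0.11, adjusted p = 0.00174). Gatb is a subunit of the enzyme that converts glutamate to glutamine on the tRNA loaded by Ears2. Gatb rose by 0.97 (SE 0.10, adjusted p = 1.12e-06) in papilloma and 0.51 (SE 0.10, adjusted p = 0.000597) in carcinoma. It was lower in carcinoma than in papilloma, with a difference of -0.46 (SE 0.10, adjusted p = 0.00621). The other subunits differed among themselves, with Gatc at 0.37 and 0.20 (both called) and Qrsl1 at -0.22 and -0.28 (not called).

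Among 8 cytosolic elongation factors 5 rose and 0 fell in each tumour. The nucleotide exchange subunits Eef1b2, Eef1d and Eef1g led. Eef1b2 rose by 1.29 (SE 0.07, adjusted p = 2.30e-09) in papilloma and 1.17 (SE 0.07, adjusted p = 6.58e-09) in carcinoma. Eef1g rose by 1.03 (SE 0.10, adjusted p = 4.00e-07) and 0.72 (SE 0.10, adjusted p = 1.59e-05), and Eef1d by 0.86 (SE 0.07, adjusted p = 2.04e-07) and 0.74 (SE 0.07, adjusted p = 8.31e-07). Eef2 and Eif5a were the other two called, at 0.39 and 0.57 in carcinoma. Eef1g was lower in carcinoma than in papilloma, with a difference of -0.32 (SE 0.10, adjusted p = 0.0435), a call lost in 13 of 15 fits that each left out an array, all but those without carcinoma 3 or 4 (adjusted p = 0.0528 to 0.101), after quantile normalization (0.0527) and with chromosome-wide shifts removed (-0.20, adjusted p = 0.111).

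RNA polymerase III, which makes tRNAs, and tRNA processing were read from 36 measured genes. In carcinoma 21 rose and 2 fell (Polr3gl and Gtf3c1), and in papilloma 19 rose and 1 fell (Gtf3c5), with medians of 0.31 and 0.33. The polymerase subunit Polr3k rose by 1.01 (SE 0.07, adjusted p = 2.65e-08) in papilloma and 1.16 (SE 0.07, adjusted p = 5.28e-09) in carcinoma, and Elac2, which trims the 3′ ends of tRNAs, by 1.18 (SE 0.07, adjusted p = 1.99e-09) and 1.13 (SE 0.07, adjusted p = 3.22e-09). Polr3b rose by 1.19 (SE 0.08, adjusted p = 1.35e-08) in papilloma and 0.87 (SE 0.08, adjusted p = 3.19e-07) in carcinoma. Tsen15, of the tRNA splicing endonuclease, rose by 0.78 (SE 0.10, adjusted p = 8.9e-06) in papilloma and 0.998 (SE 0.10, adjusted p = 5.11e-07) in carcinoma. Polr3gl differed by -0.24 (SE 0.07, adjusted p = 0.00753) in carcinoma, and the transcription factor subunit Gtf3c5 by -0.37 (SE 0.08, adjusted p = 0.00174) in papilloma. Xpot, which exports tRNAs from the nucleus, changed by -0.02 and -0.04, neither called. Between the tumours 0 of the 36 were higher in carcinoma and 3 lower, where 6.24% of all genes were called higher and 5.17% lower. The differences were -0.33 (SE 0.10, adjusted p = 0.0391) for Brf1, a polymerase III initiation factor subunit, -0.31 (SE 0.08, adjusted p = 0.0184) for Polr3b and -0.24 (SE 0.07, adjusted p = 0.0259) for Polr3gl. Brf1 lost its call in 10 of 15 fits that left out an array, all but those without carcinoma 4 or 5, normal 1 or 5, or papilloma 4 (adjusted p = 0.0504 to 0.0903), and with chromosome-wide shifts removed (-0.21, adjusted p = 0.102). Polr3b lost its call without papilloma 3 (adjusted p = 0.0541), and Polr3gl without carcinoma 5 or papilloma 1, 4 or 5 (adjusted p = 0.0503 to 0.0622).

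Genes of the amino acid response other than synthetases were read from 26 measured genes. In carcinoma 19 rose and 3 fell, and in papilloma 13 rose and 4 fell, with medians of 0.99 and 0.62. Enzymes of amino acid and folate-linked synthesis had the largest rises. Shmt2 (serine to glycine in mitochondria) rose by 1.89 (SE 0.08, adjusted p = 1.01e-10) in papilloma and 2.28 (SE 0.08, adjusted p = 2.45e-11) in carcinoma. Aldh18a1 (proline synthesis) rose by 1.96 (SE 0.08, adjusted p = 5.18e-11) and 2.16 (SE 0.08, adjusted p = 2.98e-11). Psat1 (serine synthesis) rose by 2.06 (SE 0.13, adjusted p = 7.54e-09) in papilloma and 1.63 (SE 0.13, adjusted p = 8.17e-08) in carcinoma. Asns, asparagine synthetase, rose by 1.86 and 2.002. The transcription factor Atf3 rose by 2.004 (SE 0.51, adjusted p = 0.00490) in carcinoma, while Atf4 itself changed by 0.24 and 0.32, neither called. Slc7a11, the cystine importer, differed by -3.16 (SE 0.43, adjusted p = 2.65e-05) in papilloma and -2.47 (SE 0.43, adjusted p = 0.000228) in carcinoma, lower in both, as were its partner Slc3a2 (-0.36 and -0.41) and the lipoprotein receptor Vldlr (-1.75 and -1.27). Nupr1 was the other gene called lower in papilloma, at -0.58.

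Between the tumours 4 of the 26 amino acid response genes were higher and 2 lower in carcinoma, beside 6.24% and 5.17% of all genes. Slc7a3, a transporter of basic amino acids, was higher in carcinoma by 1.07 (SE 0.27, adjusted p = 0.0176). Slc7a3 was dim, at 5.64 to 6.07 in papilloma arrays, beside array medians of 6.79 to 6.90. In carcinoma arrays 1 to 5 it read 6.33, 8.16, 6.55, 6.37 and 7.20, so only carcinoma 2 and 5 exceeded those medians. The dim-gene filter left it out. Sesn2, a leucine sensor, was lower, with a difference of -1.09 (SE 0.16, adjusted p = 0.000397). Nupr1 was higher by 0.69 (SE 0.19, adjusted p = 0.0293), a call lost without carcinoma 2 or 5 or papilloma 1, 2, 3 or 4 (adjusted p = 0.0501 to 0.0677). Atf5 was higher by 0.46 (SE 0.13, adjusted p = 0.0281), lost without carcinoma 2 or papilloma 2, 4 or 5 (adjusted p = 0.0550 to 0.0671). Shmt2 (0.39) and Psat1 (-0.43) were the others called.

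**Figure D5:**
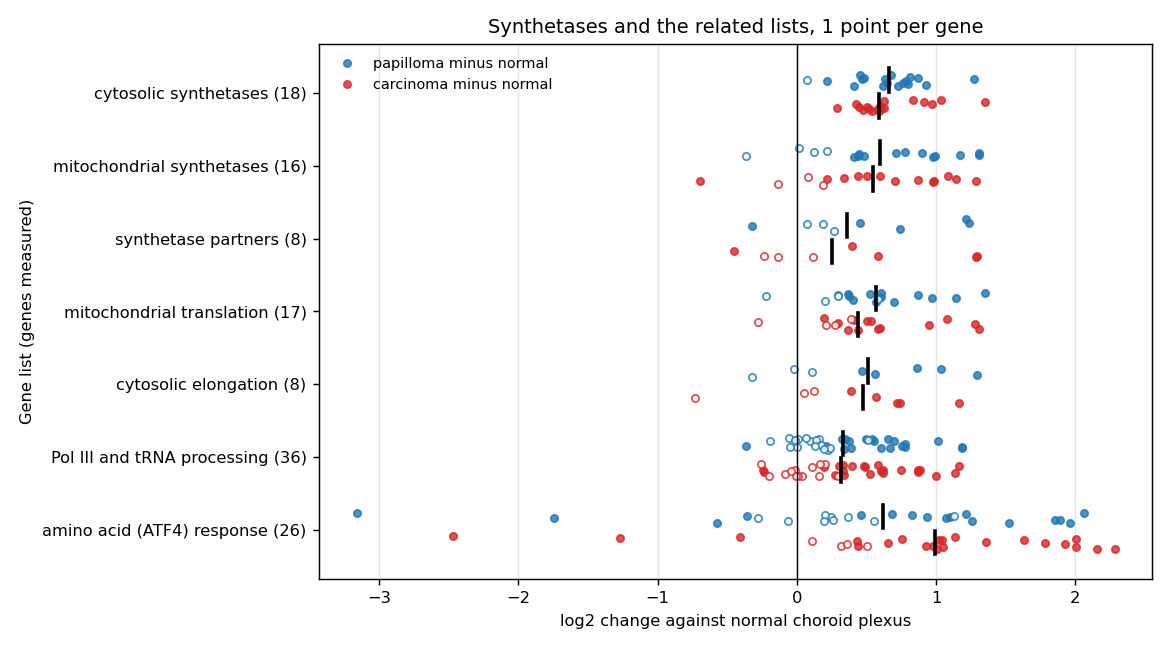
Log2 change against normal (horizontal axis) of each gene in the synthetase groups and the related lists, papilloma in blue above and carcinoma in red below in each row; filled points passed the test, open points did not, and black bars mark medians. Medians lie to the right of 0 in every row, and the amino acid response row is the widest, from Slc7a11 at the far left to Shmt2 at the far right.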

How the data were processed

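Arrays were labelled from total RNA by a whole-transcript protocol, per the labels. The deposited values are log2 RMA summaries per probe set made by the authors with Affymetrix Expression Console, per the submitters' processing notes, which name no version or genome build. RMA forces arrays to a shared distribution, so changes are relative within an array, and precision is limited by the 5 arrays per group.

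Of 41345 probe sets, 23521 carried 1 gene symbol in the platform annotation, 1814 several and 16010 none. For 23328 the symbol was updated through RefSeq. The probe set with the highest mean stood for a gene, giving 22180 genes. Aars shares its probe set with Exosc6 and was not analysed here. Groups were compared with limma 3.58.1 (R 4.3.3), group as the only term over all 15 arrays (12 residual degrees of freedom), eBayes moderation and Benjamini-Hochberg adjustment over all genes at 0.05. Pair differences entered the same fit as further rows. Every member is named. Values are given for the 6 largest rises and falls per comparison, the 2 largest changes not called and each member differing between tumours, and, per related list, up to 3 genes called in its main direction plus 1 called oppositely. For list genes so chosen in 1 tumour, the change in the other is given where called. Further genes named where a count was 5 or fewer, and Wars, Asns, Atf4, Qrsl1, Gatc and Xpot, were chosen after their values were seen. Members and lists were chosen with earlier results of these data known. Alternatives were another variance moderation, normalization, centring, dim-gene filter (above the array median in at least 5 arrays) and probe set rule, chromosome-wide shifts removed, the replicate number as a term and each array left out.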

Additional observations from a re-analysis of the deposited data

Results flagged for a closer look

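In 5 of the 102 sets of 5 arrays examined (34 members in 3 groups), a single array lay far from the other 4, its gap to the nearest divided by the whole range exceeding 0.71. Chance flags about 1 in 20 such sets. Hars2, the mitochondrial histidine enzyme, read 9.755 in carcinoma 3, where the other carcinoma arrays read 9.15 to 9.25, and 9.044 in normal 1, where the other normal arrays read 8.72 to 8.79. Mars2 (methionine) read 8.207 in normal 3, above 7.90 to 7.98 in the other normal arrays. Sars2 (serine) read 9.126 in normal 4, below 9.21 to 9.25, and Cars (cysteine) 8.969 in normal 5, below 9.02 to 9.04. The calls of these genes against normal tissue did not change when any single array was left out.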

How the results depend on the processing

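The numbers of members called against normal tissue stayed at 28 to 31 of 34 in every fit that left out an array, in carcinoma and in papilloma, and at 28 to 31 under the other alternatives. The median change ran from 0.53 to 0.66 (cytosolic) and 0.52 to 0.58 (mitochondrial) in carcinoma without an array, and from 0.64 to 0.69 and 0.56 to 0.65 in papilloma. With Tarsl2 counted as mitochondrial the papilloma median of that group was 0.48. Between the tumours, where medians ran from -0.00 to 0.06 and from -0.11 to -0.01, the members called numbered 0 to 2 without an array (0 without carcinoma 1 or papilloma 2, 3, 4 or 5, and 2 without carcinoma 2), 2 with dim genes left out and 0 with the replicate block. Pairs called numbered 8 to 9 in carcinoma, 5 to 10 in papilloma (5 without normal 3 or papilloma 1 or 4, 10 without carcinoma 3) and 0 to 3 between the tumours (3 without carcinoma 3). Of single values, Cars2 in carcinoma reversed to 0.046 without carcinoma 4 (range without an array -0.273 to 0.046), and Pars2 in papilloma to -0.0043 without normal 2, -0.0172 without normal 5 and -0.0035 without papilloma 3 (range -0.0172 to 0.0452). The causes of these changes were not tested.

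Replicate numbers are shared across groups, but they did not pair the arrays. Only 2 of 15 same-numbered pairs had deviations correlated above 0.1 (-0.096 to 0.136), and arrays correlated best with their own number in 6 of 30 comparisons. With the replicate block 29, 29 and 0 members and 8, 7 and 0 pairs were called in carcinoma, papilloma and between the tumours. Of the values printed, the block lost the calls of Gars (adjusted p = 0.0605) and Wars (0.0608) in carcinoma, Nars (0.05145) and the threonine pair (0.05295) in papilloma, and Nars (0.0624), Eef1g (0.0704), Brf1 (0.0759) and Polr3gl (0.0568) between the tumours, and Aars2 passed in papilloma (0.0232). Signal over background was not used here, and dim genes were judged only against the array medians.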
